A study of Mus musculus with 6 samples.

Results

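Adenosine and ATP carry signals between glia and neurons, and 10 mouse genes of this system were followed in the spinal cord of mice that lost Sox2 in astrocytes. The genes were picked by name and not by any measured value. They are the adenosine receptors Adora1, Adora2a and Adora2b, the ATP and ADP receptors P2ry1, P2rx4 and P2rx7, the surface enzymes Entpd2 and Nt5e, the nucleoside transporter Slc29a1 and the adenosine kinase gene Adk. All 10 were found in the deposited table of 35275 genes. The study used bulk RNA-seq of poly(A) RNA to ask which transcripts change in the central nervous system when the transcription factor SOX2 is disrupted. RNA came from the whole cord of 3 Sox2 cKO and 3 control (Ctrl) C57BL/6 mice. The Sox2 cKO mice carried mGfap-Cre and 2 floxed Sox2 alleles (mGfap-Cre:Sox2fl/fl), so that Cre made under the mouse Gfap promoter deletes Sox2 in astrocytes, and the RNA still came from every cell type of the cord. For the Ctrl mice, the sample labels give mGfap-Cre:Sox2+/+, the series text gives mGfap-Cre or Sox2fl/fl, and the paper gives Sox2fl/fl littermates. Whether Cre was present in the controls could therefore not be settled. The age is P90 in the labels and P80 in the protocol and the paper, and each group held mice of both sexes. The labels put the RNA integrity number of all samples above 6.8, while the paper states a stricter limit. In bulk tissue, fewer cells of a type and less RNA per cell cannot be told apart.

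Astrocytes and neurons release ATP, which acts on P2X channels and on P2Y receptors coupled to G proteins. Enzymes on the cell surface then strip its phosphates one after another until adenosine is left, which acts on its own receptors. Adenosine is cleared by uptake through nucleoside transporters and by phosphorylation inside the cell, a step that in the adult brain is assigned mainly to astrocytes.

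Total counts per library ran from 21507911 to 28392184, without separating the groups. Sox2, the deleted gene, stood at 19.9, 14.8 and 29.5 CPM (counts scaled to library size with TMM factors) in Ctrl libraries 2, 4 and 6, and at 3.16, 2.69 and 2.98 CPM in Sox2 cKO libraries 1, 3 and 5. Its log2 fold change was -2.86 ± 0.24 (SE, n = 3 per group, edgeR quasi-likelihood test, Benjamini-Hochberg adjusted p = 0.00096). Over all genes, 3970 of 16137 tested were called at an adjusted p under 0.05, 2008 of them lower and 1962 higher in Sox2 cKO mice, which is 24.6%. On log2(FPKM + 1) with limma the split was 915 lower and 2670 higher. The calls over all genes depended on single libraries. There were 26 without Ctrl library 4, 8 without Sox2 cKO library 1, 1082 without Ctrl library 6, 1359 without Sox2 cKO library 3 and 6119 without Ctrl library 2. The 6 Hox genes of the cord summed to between 210 and 242 FPKM in every library, whereas the forebrain genes Emx1 and Tbr1 were at or near 0 and Neurod6 lay between 1.12 and 2.09 FPKM. Of 10 astrocyte markers, 7 were called lower and none higher. After the correction for gene length described below, 4 were called, all of them lower, beside 13.1% of all genes tested. Gfap fell by 1.11 ± 0.15 and Aldh1l1 fell by 0.37 ± 0.10 on the log2 scale (SE, edgeR adjusted p = 0.010 and 0.027). Over the alternative fits, Aldh1l1 lost its call in 10 and kept it in 9, whereas Gfap lost it in 1 and kept it in 18.

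Sequences at the genes that carry the results were read from RefSeq and from the study's list of SOX2-bound sites, which came from chromatin of the adult mouse cerebral cortex. That list holds sites of high enrichment. It gave 2 of the 10 genes a site within the gene or 10000 bases around it. The share of all genes with a site by this rule was not counted, and Adk is long (chr14:21052574-21448569), so the 2 cannot be weighed. The paper also reports a larger set of bound sites without the limit on enrichment, which was not searched. The other genes are therefore not shown to be unbound. The Entpd2 site lay in mm10 chr2:25394885-25394985, 889 bases before the start of the gene and outside any part of it. The Adk site lay in an intron, in mm10 chr14:21369152-21369252. The listed binding sequence is in capitals, read on the minus strand for Entpd2 and on the plus strand for Adk.
Entpd2 site: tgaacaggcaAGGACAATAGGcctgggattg
Adk site: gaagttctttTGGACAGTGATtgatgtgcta
Promoter windows are shown for the 3 genes called in the expression test. Each runs from 250 bases before the transcript start to 50 bases after it (RefSeq, GRCm38.p6), and capitals mark CAAAG or its reverse complement CTTTG, 5 letters of the element that SOX proteins recognise. The printed Adora1 window was chr1:134235408-134235707 (minus strand), that of P2ry1 chr3:61002535-61002834 (plus strand) and that of Nt5e chr9:88327359-88327658 (plus strand).
Adora1 promoter: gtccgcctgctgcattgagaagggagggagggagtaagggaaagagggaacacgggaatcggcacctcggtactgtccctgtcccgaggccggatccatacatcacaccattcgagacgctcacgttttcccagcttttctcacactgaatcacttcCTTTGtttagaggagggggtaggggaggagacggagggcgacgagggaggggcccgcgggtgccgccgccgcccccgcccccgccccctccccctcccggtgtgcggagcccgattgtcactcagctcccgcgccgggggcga
P2ry1 promoter: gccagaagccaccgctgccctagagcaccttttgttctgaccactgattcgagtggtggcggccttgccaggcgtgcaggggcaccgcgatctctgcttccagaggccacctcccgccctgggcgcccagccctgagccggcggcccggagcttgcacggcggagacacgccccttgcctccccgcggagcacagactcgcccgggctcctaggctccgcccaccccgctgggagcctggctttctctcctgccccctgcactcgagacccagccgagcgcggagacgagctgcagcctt
Nt5e promoter: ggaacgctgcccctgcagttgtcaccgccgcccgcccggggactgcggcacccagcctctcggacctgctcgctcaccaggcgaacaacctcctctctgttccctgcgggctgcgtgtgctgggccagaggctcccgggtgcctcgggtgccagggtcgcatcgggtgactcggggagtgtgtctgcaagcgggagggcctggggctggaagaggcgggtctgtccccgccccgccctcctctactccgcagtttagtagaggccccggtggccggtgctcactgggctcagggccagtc
A match stood in the printed Adora1 window, and the P2ry1 and Nt5e windows held none. Another Adora1 window (chr1:134234807-134235106, minus strand), which is not printed, held 0 matches. Of the 10 genes 9 had a window, Adora2a being without, and 11 of their 19 windows held a match on either strand. Over all 32851 promoter windows of this length the share with a match was 53.9%. The letters ACAAT or ATTGT were in 1 of the 19 windows, the printed one of Adora1 (lower case in the sequence above, apart from the CAAAG match), and in 31.0% of all windows.

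Among the 10 genes, Adora1 and P2ry1 fell and Nt5e rose in Sox2 cKO mice, and the other 7 did not pass the test. All 10 passed the filter on low counts. The 3 calls are 30% of the 10, beside 24.6% of all genes tested, or 2 lower beside 12.4% and 1 higher beside 12.2%, so the share called was close to the background. The median log2 fold change was 0.06, against 0.02 over all genes tested. In CPM, 4 of the 10 (the 3 called genes and P2rx7) had groups that did not overlap, beside 44.7% of all genes tested. DESeq2 and limma on log2(FPKM + 1) each called the same 3 genes, with 27.7% and 24.3% of all genes called. Counts in these libraries also followed gene length to differing degrees, so the fit was repeated after a lowess curve of counts on length (span 0.3) had been taken out of every library. That fit again called the same 3 genes, with 13.1% of all genes called, and gave a median of -0.09 over the 10. The plot of fold changes by gene sets both fits side by side.

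**Figure D1:**
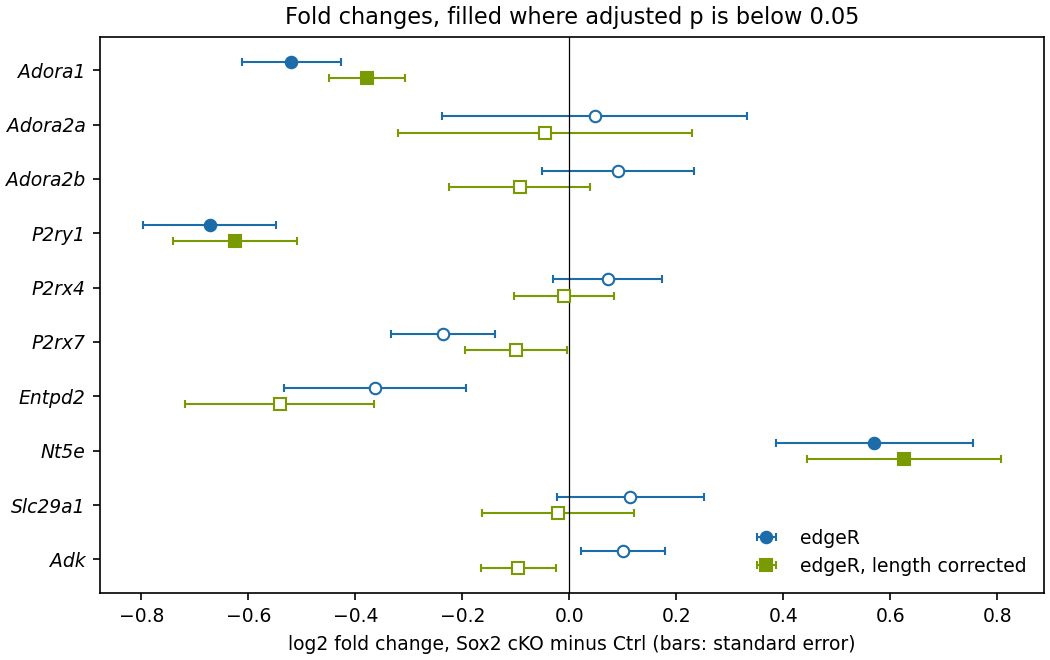
Log2 fold changes (Sox2 cKO minus Ctrl, n = 3 per group) of the 10 genes in the edgeR fit (circles) and after correction for gene length (squares), with standard errors as bars and filled symbols where the adjusted p is below 0.05. Adora1 and P2ry1 lie below 0 and Nt5e above 0 in both fits, whereas Adk, Slc29a1, P2rx4, Adora2a and Adora2b cross to below 0 with the correction.

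In the deposited FPKM, the receptor Adora1 and the kinase Adk stood highest of the 10, and their order differed between the groups. FPKM divides counts by the length of the gene, so every rank between genes below rests on the lengths the authors used. In Ctrl mice Adora1 stood at 42.6 ± 3.52 FPKM and Adk at 31.9 ± 2.62 (SD, n = 3). In Sox2 cKO mice Adora1 stood at 31.9 ± 0.334 FPKM and Adk at 36.5 ± 0.935 (SD, n = 3). The ratio of Adora1 to Adk within a library was 1.11, 1.48 and 1.47 in Ctrl mice and 0.885, 0.893 and 0.842 in Sox2 cKO mice. The 2 sets of ratios did not overlap (exact permutation test, two-sided p = 0.1, the smallest that 3 against 3 libraries can give). The difference between the log2 fold changes of the 2 genes was -0.62, and it shrank to -0.28 with the length correction, Adora1 being counted over 4968 bases and Adk over 1781. A change of -0.28 from the mean Ctrl ratio of 1.35 would leave a ratio of 1.11, with Adora1 still above Adk. The exchange of rank also did not hold with GENCODE exonic lengths (5785 bases for Adora1 and 8526 for Adk), an alternative chosen after the data were seen. With these lengths the ratio was 5.55 ± 0.866 in Ctrl and 3.59 ± 0.112 in Sox2 cKO mice (SD, n = 3), and Adk at 6.65 FPKM lay below P2ry1 at 7.27 FPKM in Ctrl mice. Replacing one length by another scales the ratio alike in every library and leaves its fold between the groups as it was.

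P2ry1 and P2rx4 came next in Ctrl mice, at 8.03 ± 0.855 and 6.86 ± 0.363 FPKM (SD, n = 3). In Sox2 cKO mice P2ry1 stood at 5.39 ± 0.623 and P2rx4 at 7.73 ± 0.802 FPKM. The ratio of P2ry1 to P2rx4 was 1.005, 1.32 and 1.20 in Ctrl mice and 0.555, 0.837 and 0.726 in Sox2 cKO mice, again without overlap (exact permutation test, two-sided p = 0.1). In FPKM the groups of Adora1 and of P2ry1 did not overlap by themselves either, so the separation of these ratios is not a separate result. Here the length correction left a difference of -0.62 between the log2 fold changes, from -0.74 without it. With GENCODE exonic lengths (4291 bases for P2ry1 and 7025 for P2rx4) P2ry1 lay above P2rx4 in both groups, at ratios of 2.81 ± 0.378 in Ctrl and 1.69 ± 0.339 in Sox2 cKO mice (SD, n = 3), so which of the 2 stood higher in Sox2 cKO mice depends on the length. Slc29a1 at 4.41 ± 0.154, Adora2b at 4.21 ± 0.680 and Entpd2 at 3.69 ± 0.279 FPKM (SD, n = 3) followed in Ctrl mice. Neighbours among these 3 overlapped between libraries and cannot be ranked. P2rx7, Nt5e and Adora2a closed the order at 3.11 ± 0.0449, 1.40 ± 0.365 and 0.640 ± 0.224 FPKM. In Sox2 cKO mice P2ry1 overlapped Slc29a1 (5.11 ± 0.672 FPKM), which overlapped Adora2b (4.78 ± 0.327), and Entpd2 (3.08 ± 0.615) overlapped P2rx7 (2.83 ± 0.157). Nt5e at 2.22 ± 0.122 and Adora2a at 0.712 ± 0.130 FPKM (SD, n = 3) kept the last places.

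**Figure D2:**
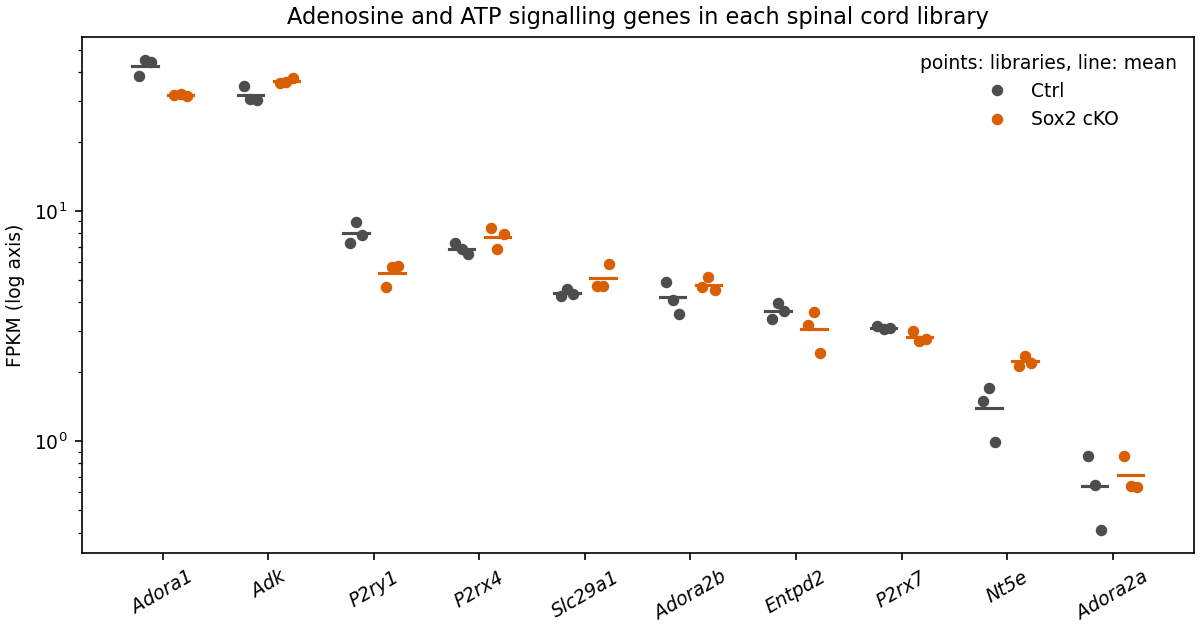
FPKM (log axis) of the 10 genes in each of the 3 Ctrl and 3 Sox2 cKO libraries (points) with group means (lines). All Ctrl points of Adora1 lie above those of Adk, and the order is the other way round in the Sox2 cKO libraries, with the gene lengths behind the deposited FPKM (not with GENCODE exonic lengths).

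Adora1 encodes the adenosine A1 receptor, which couples to inhibitory G proteins and, on nerve terminals, restrains transmitter release. The gene (ENSMUSG00000042429) spans GRCm38 chr1:134199223-134235431 on the minus strand. Adora1 stood at 193, 233 and 233 CPM in Ctrl libraries 2, 4 and 6 and at 149, 155 and 156 CPM in Sox2 cKO libraries 1, 3 and 5. The lowest Ctrl library lay above all Sox2 cKO libraries, which lay close together. Adora1 fell by 30.2%, a log2 fold change of -0.52 ± 0.09 (SE, n = 3 per group, 95% CI -0.73 to -0.31, edgeR adjusted p = 0.013). After the length correction the log2 fold change was -0.38 (edgeR adjusted p = 0.019). Without Ctrl library 4 or without Sox2 cKO library 1 the adjusted p of edgeR was 0.065 and 0.066, at log2 fold changes of -0.48 and -0.50, while DESeq2 called the gene with any 1 library left out, at adjusted p values up to 0.0017. Part of the gene, 1162 exonic bases, is shared with Mybph on the other strand. Mybph had 82 counts over all libraries.

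Summed over the 10 astrocyte markers, the level was between 2083 and 2545 FPKM in Ctrl and between 1506 and 1677 FPKM in Sox2 cKO libraries. Of these sums Gfap alone made up 890, 960 and 1247 FPKM in Ctrl libraries 2, 4 and 6. In Sox2 cKO libraries 1, 3 and 5 it made up 600, 462 and 478 FPKM. Adora1 and, below, P2ry1 moved in the same direction as this sum, while Fgfr3 and Gjb6 within it moved the other way in FPKM. Of 6 markers of oligodendrocyte precursors, 5 were called lower, and 2 after the length correction. Their sums were between 58.6 and 61.6 FPKM in Ctrl and between 51.9 and 53.2 FPKM in Sox2 cKO libraries. The 8 neuron markers, with 1 called (higher), summed to between 1166 and 1449 FPKM in Ctrl and between 1529 and 1593 FPKM in Sox2 cKO libraries. Their part in the result was not tested.

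Adora2a and Adora2b encode the receptors that couple to stimulatory G proteins and raise cyclic AMP. Adora2b stood at 9.15, 7.90 and 7.0 CPM in Ctrl and at 8.13, 9.21 and 8.27 CPM in Sox2 cKO libraries. The groups overlapped, and the log2 fold change of 0.09 had a 95% CI from -0.22 to 0.41 (edgeR adjusted p = 0.66). Adora2a was the least abundant of the 10, with between 23 and 49 counts per library. It stood at 2.20, 1.70 and 1.11 CPM in Ctrl and at 2.06, 1.57 and 1.59 CPM in Sox2 cKO libraries, and the interval of its log2 fold change ran from -0.59 to 0.68 (edgeR adjusted p = 0.92). The fold change of Adora1 lies inside this interval, so a change of that size in Adora2a is not excluded.

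P2ry1 encodes P2Y1, an ADP receptor that couples to Gq and releases calcium from internal stores, and in astrocytes it is a known trigger of calcium signals. The gene (ENSMUSG00000027765) lies at GRCm38 chr3:61002795-61008982 on the plus strand. P2ry1 stood at 28.5, 36.2 and 32.3 CPM in Ctrl libraries 2, 4 and 6 and at 17.1, 21.6 and 22.1 CPM in Sox2 cKO libraries 1, 3 and 5. Every Ctrl library lay above every Sox2 cKO library. It fell by 37.2%, the largest decrease among the 10 in the edgeR fit, with a log2 fold change of -0.67 ± 0.12 (SE, n = 3 per group, 95% CI -0.95 to -0.40, edgeR adjusted p = 0.013) and of -0.63 after the length correction (edgeR adjusted p = 0.019). As for Adora1, the edgeR call was lost without Ctrl library 4 (log2 fold change -0.58, adjusted p = 0.065) and without Sox2 cKO library 1 (-0.57, adjusted p = 0.066). DESeq2 called P2ry1 with any 1 library left out, at adjusted p values up to 0.0064. An antisense gene, Gm37035, shares 992 exonic bases with P2ry1 and has no row of its own in the table.

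P2rx4 and P2rx7 encode ATP-gated cation channels best known in microglia. P2rx7 stood at 15.7, 15.8 and 16.3 CPM in Ctrl and at 14.1, 13.03 and 13.5 CPM in Sox2 cKO libraries. The groups did not overlap, yet the gene did not pass the test, with a log2 fold change of -0.24 ± 0.10 (SE, n = 3 per group, 95% CI -0.45 to -0.02, edgeR adjusted p = 0.10) that was -0.10 after the length correction (edgeR adjusted p = 0.50). P2rx4 stood at 19.4, 18.8 and 18.4 CPM in Ctrl and at 21.1, 17.6 and 20.9 CPM in Sox2 cKO libraries. Its groups overlapped, and the 95% CI of its log2 fold change of 0.07 ran from -0.15 to 0.30 (edgeR adjusted p = 0.63). Of 10 microglia markers, edgeR called 1, Trem2 (higher), and DESeq2 called 4, Trem2 and C1qa higher and Cx3cr1 and Csf1r lower. Their sum was between 113 and 128 FPKM in Ctrl and between 117 and 181 FPKM in Sox2 cKO libraries, of which C1qa alone made up 40.9 to 81.7 FPKM in the latter. The part of microglia in the values of P2rx4 and P2rx7 was not tested.

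**Figure D3:**
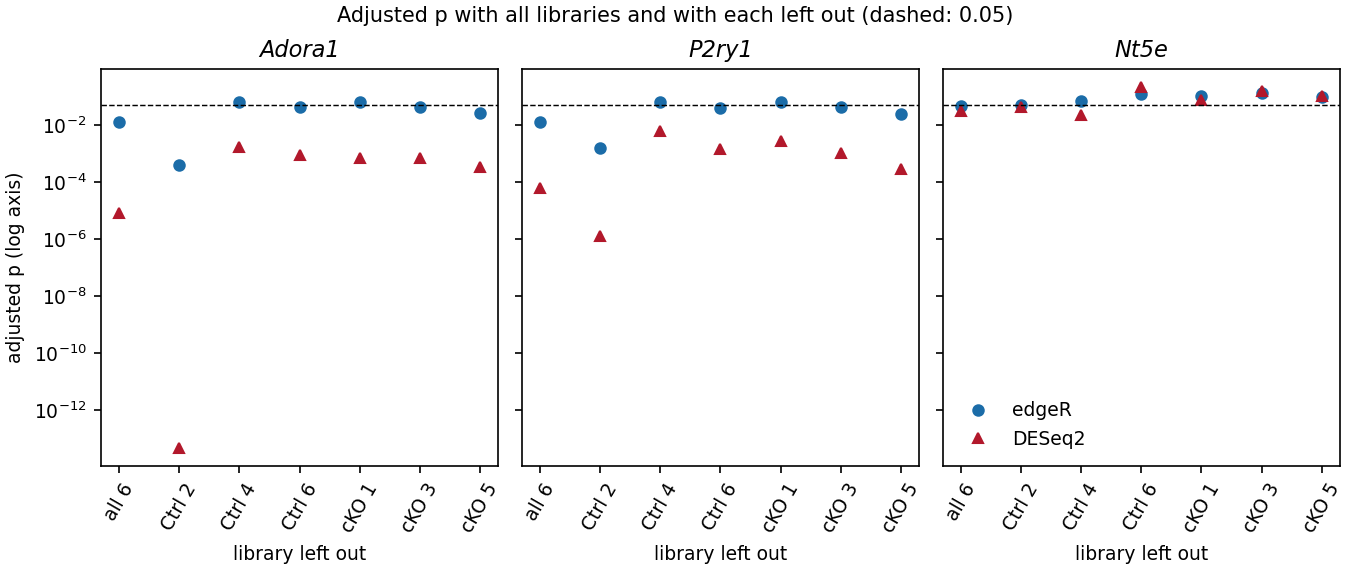
Adjusted p (log axis) of Adora1, P2ry1 and Nt5e with all 6 libraries and with each library left out, from edgeR (circles) and DESeq2 (triangles), with a dashed line at 0.05. Leaving out Ctrl library 4 or Sox2 cKO library 1 put the edgeR values of Adora1 and P2ry1 above the line (0.065 and 0.066), while their DESeq2 values stayed below it.

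Nt5e encodes the ecto-5'-nucleotidase CD73, an enzyme that makes adenosine from AMP outside the cell. It was the only one of the 10 to be called higher. The gene (ENSMUSG00000032420) spans GRCm38 chr9:88327197-88372092 on the plus strand. Nt5e stood at 6.01, 7.07 and 4.2 CPM in Ctrl libraries 2, 4 and 6 and at 7.99, 9.11 and 8.61 CPM in Sox2 cKO libraries 1, 3 and 5. All Sox2 cKO libraries lay above all Ctrl libraries, and Ctrl library 6 was the lowest of the 6. The rise was 1.48-fold, a log2 fold change of 0.57 ± 0.18 (SE, n = 3 per group, 95% CI 0.16 to 0.98, edgeR adjusted p = 0.047), and 0.63 after the length correction (edgeR adjusted p = 0.049). The call was lost in edgeR whichever library was left out. The adjusted p of edgeR was 0.0505, 0.069 and 0.12 without Ctrl libraries 2, 4 and 6 and 0.10, 0.14 and 0.095 without Sox2 cKO libraries 1, 3 and 5. Without Ctrl library 6 the log2 fold change was 0.39, and without Ctrl library 4 it was 0.75. DESeq2 called Nt5e without Ctrl library 2 or 4 (adjusted p = 0.044 and 0.022) and not without any of the other libraries.

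Ctrl library 6 was also low in genes of fibroblasts, which in the meninges are known to make CD73. The 8 fibroblast and mural cell markers summed to 96.6, 93.0 and 54.1 FPKM in Ctrl libraries 2, 4 and 6 and to 115, 95.01 and 89.8 FPKM in Sox2 cKO libraries 1, 3 and 5. None of the 8 was called by edgeR or DESeq2 (0 at an unadjusted edgeR p under 0.05), and none had groups that did not overlap in CPM. Dcn, a collagen-binding proteoglycan of fibroblasts, stood at 26.7, 28.1 and 10.3 FPKM in Ctrl libraries 2, 4 and 6 and at 41.2, 35.9 and 29.3 FPKM in Sox2 cKO libraries. Of the 8, Dcn, Lum, Col1a1, Col1a2, Slc22a6 and Slc47a1 were lowest in Ctrl library 6, and the mural cell genes Pdgfrb and Rgs5 were not. Col1a1 ran the other way from Dcn between the groups, at 11.7 and 8.66 FPKM in Ctrl libraries 2 and 4 against 6.09, 5.203 and 6.06 FPKM in Sox2 cKO libraries. The 8 endothelial markers summed to between 51.4 and 55.2 FPKM in Ctrl libraries, highest in library 6, and to between 54.2 and 91.0 FPKM in Sox2 cKO libraries. Nt5e stood at 1.49 and 1.70 FPKM in Ctrl libraries 2 and 4 against 2.12, 2.35 and 2.18 FPKM in Sox2 cKO libraries. In the summed markers Ctrl libraries 2 and 4 lay within the range of the Sox2 cKO libraries. In FPKM of Dcn and of Rgs5 (22.8 to 24.4 in Ctrl and 25.2 to 34.5 in Sox2 cKO libraries) every Ctrl library lay below every Sox2 cKO library. The share of all genes separated in this way in FPKM was not counted. The part of these cells in the rise was not tested.

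**Figure D4:**
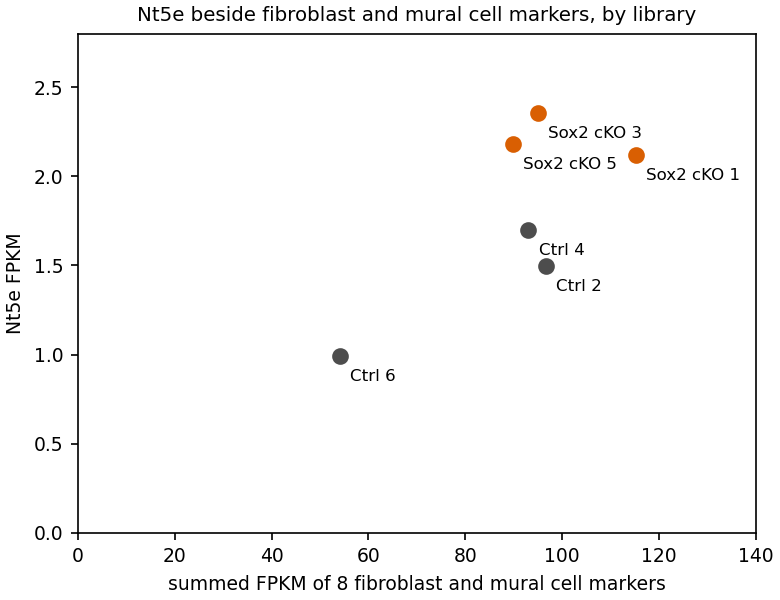
Nt5e (FPKM) against the summed FPKM of 8 fibroblast and mural cell markers in each library (points, coloured by group). Ctrl library 6 is lowest on both axes (0.991 and 54.1 FPKM). The other Ctrl libraries lie below the Sox2 cKO libraries in Nt5e and within their range in the marker sum, whose genes differ in direction between the groups.

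Entpd2 encodes an ectonucleotidase known from adult neural stem cells and glia, which favours ATP over ADP as its substrate. Entpd2 stood at 6.64, 7.98 and 7.58 CPM in Ctrl libraries 2, 4 and 6 and at 5.84, 6.79 and 4.61 CPM in Sox2 cKO libraries 1, 3 and 5. Sox2 cKO library 3 lay above Ctrl library 2, so the groups overlapped. The log2 fold change was -0.36 ± 0.17 (SE, n = 3 per group, 95% CI -0.74 to 0.02, edgeR adjusted p = 0.14), and -0.54 after the length correction (edgeR adjusted p = 0.066). Entpd2 has the SOX2-bound site printed above before its start, and it was not called. It shares 612 exonic bases with its neighbour Npdc1 on the same strand, which had 19738 counts over all libraries, so reads from the shared stretch are uncertain.

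Slc29a1 encodes the equilibrative nucleoside transporter ENT1, and Adk the kinase that turns adenosine into AMP inside the cell. Slc29a1 stood at 9.56, 10.6 and 10.3 CPM in Ctrl and at 9.84, 10.2 and 12.9 CPM in Sox2 cKO libraries. In CPM only Sox2 cKO library 5 stood above the Ctrl range. The log2 fold change was 0.11 with a 95% CI from -0.19 to 0.42 (edgeR adjusted p = 0.57). In FPKM the groups of Slc29a1 did not overlap (4.28 to 4.58 in Ctrl and 4.70 to 5.88 in Sox2 cKO libraries). The share of all genes without overlap in FPKM was not counted. On log2(FPKM + 1) with limma the median difference over all genes was 0.089, with 2670 genes called higher and 915 lower. Limma on log2(FPKM + 1) gave Slc29a1 a difference of 0.17 (adjusted p = 0.21). Adk stood at 62.5, 56.5 and 57.0 CPM in Ctrl and at 60.3, 62.4 and 66.2 CPM in Sox2 cKO libraries. In CPM the groups of Adk overlapped. In FPKM, which takes no TMM factor, they did not (30.2 to 34.9 in Ctrl and 35.8 to 37.6 in Sox2 cKO libraries), and limma on log2(FPKM + 1) gave a difference of 0.19 (adjusted p = 0.094). The log2 fold change of Adk in edgeR was 0.10 (95% CI -0.07 to 0.28, edgeR adjusted p = 0.36), and -0.10 after the length correction (edgeR adjusted p = 0.37). Adk holds the other SOX2-bound site in an intron and was not called.

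The other genes of the pathway were taken from a list of 50, of which 49 were found and 40 tested. Of these, 11 were called, 9 lower and 2 higher, which is 27.5% beside 24.6% of all genes tested, and their median log2 fold change was -0.14 against 0.02. After the length correction 8 were called, 7 lower and 1 higher, beside 13.1% of all genes tested. Without Ctrl library 4 or without Sox2 cKO library 1 edgeR called none of them, with 12 at an unadjusted p under 0.05 each time, and DESeq2 then called 6 and 7. Without Ctrl library 6, Sox2 cKO library 3 or Sox2 cKO library 5 edgeR called 4, 6 and 6, and without Ctrl library 2 it called 16.

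Among enzymes that break down extracellular nucleotides, 1 of 6 tested was called. Enpp1, a pyrophosphatase that makes AMP from ATP, fell from 46.9 ± 5.87 to 29.5 ± 1.91 CPM (SD, n = 3), a log2 fold change of -0.67 ± 0.11 (SE, edgeR adjusted p = 0.012) and of -0.41 after the length correction (edgeR adjusted p = 0.019). Entpd3, the most abundant of the group at 14.8 ± 0.829 FPKM in Ctrl and 15.2 ± 0.863 FPKM in Sox2 cKO mice (SD, n = 3), was not called (edgeR adjusted p = 0.63). Of 3 nucleoside transporters tested, Slc29a3, the lysosomal ENT3, fell. It stood at 42.8, 57.2 and 67.8 CPM in Ctrl and at 30.3, 29.5 and 33.1 CPM in Sox2 cKO libraries, with a fitted log2 fold change of -0.85 ± 0.15 (SE, edgeR adjusted p = 0.012). Slc29a4 was the most abundant transporter at 12.2 ± 0.564 and 11.6 ± 1.15 FPKM (SD, n = 3) and was not called (edgeR adjusted p = 0.24). With 1 library left out, edgeR called Enpp1 and Slc29a3 in 4 of 6 fits, those that kept Ctrl library 4 and Sox2 cKO library 1.

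Of 8 genes of adenosine and AMP metabolism tested, 2 were called, in opposite directions. Nt5c1a, a cytosolic nucleotidase that acts on AMP, stood at 3.95, 5.74 and 5.84 CPM in Ctrl and at 1.80, 3.10 and 2.83 CPM in Sox2 cKO libraries. It fell by 49.7%, a log2 fold change of -0.99 ± 0.24 (SE, edgeR adjusted p = 0.019). Ak1, the adenylate kinase that interconverts AMP, ADP and ATP, was the most abundant of this group at 41.5 ± 8.57 FPKM in Ctrl and 58.9 ± 3.03 FPKM in Sox2 cKO mice (SD, n = 3). It rose by 0.41 ± 0.12 on the log2 scale (SE, edgeR adjusted p = 0.030), and was not called after the length correction (0.26, edgeR adjusted p = 0.076). With 1 library left out, edgeR called Ak1 in 1 of 6 fits and Nt5c1a in 3.

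None of the other purine receptors was called at an adjusted p under 0.05 by edgeR or DESeq2, over 1 adenosine, 3 P2X and 5 P2Y receptors tested, of which 1, 1 and 1 had an unadjusted edgeR p under 0.05. Adora3, the remaining adenosine receptor, had between 6 and 38 counts per library and a log2 fold change of 1.17 ± 0.44 (SE, edgeR adjusted p = 0.077). Without Ctrl library 2 it was 1.85 (edgeR adjusted p = 0.011). P2ry14, a receptor for UDP-glucose that was chosen after its value was seen, lay at the threshold (0.73 ± 0.24, SE, edgeR adjusted p = 0.052) and was called under 6 of the other settings, among them limma on log2(FPKM + 1) (adjusted p = 0.047). P2rx5 at 7.24 ± 0.314 FPKM in Ctrl and 7.85 ± 0.346 in Sox2 cKO mice, and P2ry12 at 7.72 ± 1.003 and 7.90 ± 0.373 FPKM (SD, n = 3), were the most abundant P2X and P2Y receptors of this list, which leaves out the 10 genes (edgeR adjusted p = 0.92 and 0.71). The 4 ATP release genes tested also held no call in edgeR or DESeq2 (1 at an unadjusted edgeR p under 0.05). Gja1, the connexin of astrocyte gap junctions and the most abundant of them, stood at 98.9 ± 9.90 FPKM in Ctrl and 91.2 ± 10.6 FPKM in Sox2 cKO mice (SD, n = 3, edgeR adjusted p = 0.15).

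The G proteins and effectors that these receptors use held 7 of the 11 calls, from 10 tested, or 70% beside 24.6% of all genes tested. The 3 not called in this fit were the inhibitory subunits Gnai2 and Gnai3 and the Gq-type subunit Gna11. The inhibitory subunits Gnai1 and Gnao1 fell by 0.40 and 0.30 on the log2 scale (edgeR adjusted p = 0.015 and 0.039), and Gnao1 was the most abundant of the group at 123 ± 8.40 FPKM in Ctrl mice (SD, n = 3). On the route that P2Y1 uses, the subunit gene Gnaq fell by 0.36, the phospholipase gene Plcb1 by 0.29 and the calcium release channel Itpr2 by 0.74 (edgeR adjusted p = 0.034, 0.023 and 0.012). Itpr2, the main such channel of astrocytes, stood at 34.8, 47.9 and 45.5 CPM in Ctrl and at 24.5, 24.1 and 27.95 CPM in Sox2 cKO libraries, and its log2 fold change was -0.33 after the length correction (edgeR adjusted p = 0.036). On the cyclic AMP route, the stimulatory subunit gene Gnas rose by 0.68 ± 0.14 and the cyclase gene Adcy5 fell by 0.37 ± 0.12 on the log2 scale (SE, edgeR adjusted p = 0.013 and 0.045). With 1 library left out, edgeR called Gnao1, Gnaq, Plcb1 and Adcy5 in 1 of 6 fits each (adjusted p up to 0.15, 0.13, 0.10 and 0.17), Gnai1 in 3, and Gnas and Itpr2 in 4. After the length correction Gnaq, Plcb1 and Adcy5 were no longer called (edgeR adjusted p = 0.14, 0.76 and 0.37). Gnai2, chosen after its value was seen, was then called lower (-0.28, edgeR adjusted p = 0.033). In that fit 5 of the 10 were called, beside 13.1% of all genes tested.

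**Figure D5:**
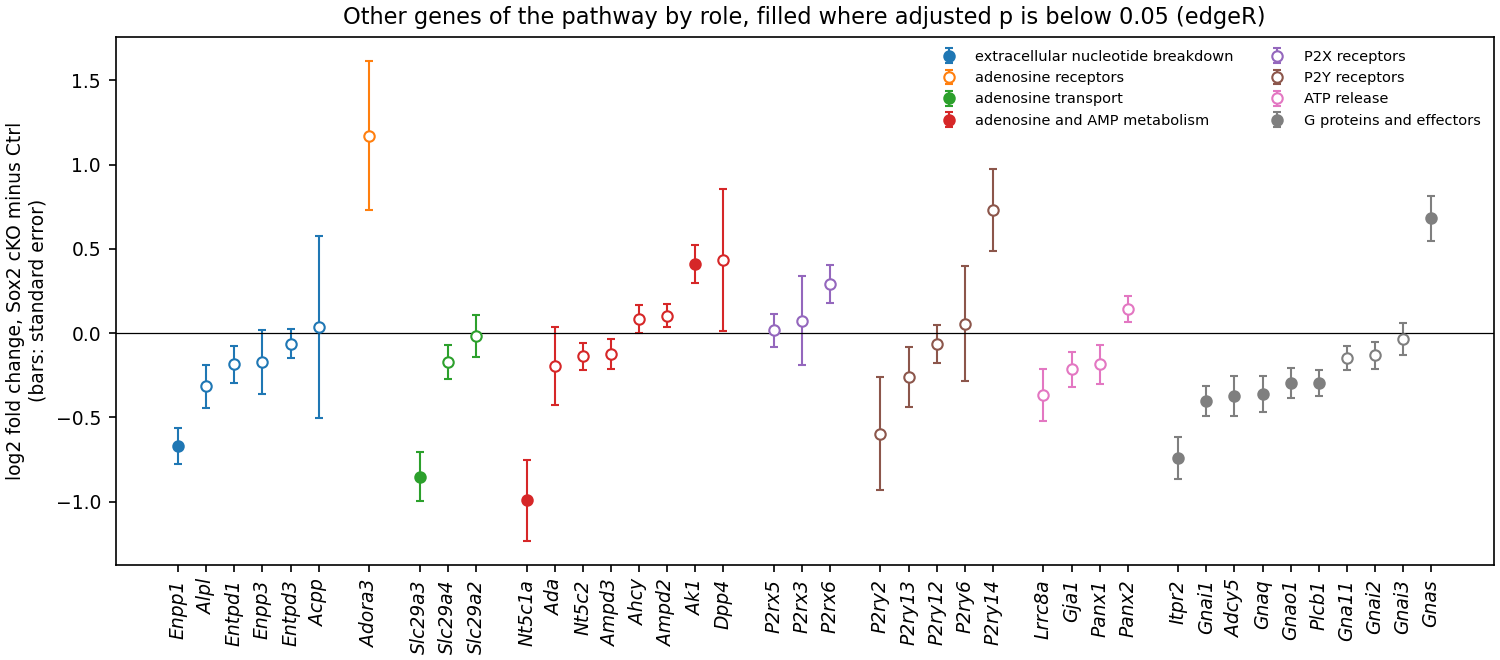
Log2 fold changes (Sox2 cKO minus Ctrl, n = 3 per group, edgeR) of the 40 other pathway genes tested, grouped and coloured by role, with standard errors as bars and filled symbols where the adjusted p is below 0.05. Of the 11 filled points, 9 lie below 0, while Ak1 and Gnas lie above it.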

How the data were processed

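Spinal cord RNA of 3 Sox2 cKO and 3 Ctrl mice was analysed. The authors aligned single-end reads of a directional library to mm10 with STAR 2.5 and counted reads per gene with HTSeq 0.6.1 (submitters' processing notes and paper). They deposited these counts without normalization. Whether counting used strand is not given in the sources used here. They also deposited FPKM, made from the counts, gene lengths and library totals.

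The columns carry numbers and match no sample name. Libraries 2, 4 and 6 were taken as Ctrl and 1, 3 and 5 as Sox2 cKO, following the rule given with the gene list, which is also how the paper numbers mice on its protein blot. Means over these columns matched the group means listed with the paper for 1999 of 1999 genes (relative tolerance 0.001), and for 0 with the groups exchanged. There were 0 per-sample columns left unused. A table of the authors' own fold changes and p-values was not used for any value. Sex was not assigned to libraries.

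Gene names and positions came from GENCODE M21 (GRCm38), which matched 34490 of 35275 identifiers. Counts were tested with edgeR 4.0.16 in R 4.3.3 (filterByExpr, TMM, quasi-likelihood test, two-sided, no covariates, Benjamini-Hochberg over all 16137 genes tested, threshold 0.05). The common biological coefficient of variation was 0.119. Intervals are 95% and hold for 1 gene at a time. The precision of low genes is limited by their counts. An exact permutation test of 3 against 3 cannot give p below 0.1. Replicates are separate mice. Alternatives were DESeq2 1.42.0, upper quartile normalization, no filter, at least 10 counts in every library, limma 3.58.1 on log2(FPKM + 1) and log2(FPKM + 0.1) where the mean FPKM reached 0.5, the length correction, and fits that left out each library. GENCODE exonic lengths were added after the data were seen. Simulated data served to test the fits that kept all 6 libraries, and not those that left out a library. The genes, lists and tests were chosen with earlier results of these data known. Named were all 10 genes, other pathway genes past the edgeR threshold, and in each role the gene of highest FPKM. The G protein genes that were not called were named as well.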

Additional observations from a re-analysis of the deposited data

How the results depend on the processing

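No paired analysis was possible because the columns carry no replicate numbers. DESeq2, upper quartile normalization, both other count filters and both limma fits kept the number of genes called within 1.5 times of 3970 (between 3510 and 4336), called 3 of the 10 genes and between 9 and 12 of the other pathway genes. With the length correction 2109 genes were called, and the log2 fold changes of genes that were not called changed sign in Adora2a (-0.046), Adora2b (-0.093), Adk (-0.095), P2rx4 (-0.0096) and Slc29a1 (-0.022). With a library left out, genes called ranged from 8 to 6119 in edgeR and from 1981 to 5624 in DESeq2, calls among the 10 genes from 0 to 3 and among other pathway genes from 0 to 16. The lowest counts came without Sox2 cKO library 1 or Ctrl library 4 in edgeR, where 4945 and 4758 genes had an unadjusted p under 0.05 and DESeq2 called 2342 and 1981 genes. The fold change of Adora2a ranged from -0.18 to 0.29 over these fits, with -0.17 (edgeR) and -0.18 (DESeq2) without Ctrl library 6 and -0.086 and -0.096 without Sox2 cKO library 1. That of Adora2b ranged from -0.0096 (DESeq2, without Ctrl library 6) to 0.20, and that of Slc29a1 from -0.035 (DESeq2) and -0.019 (edgeR), both without Sox2 cKO library 5, to 0.19. The cause was not tested. Entpd3 turned to 0.036 and 0.038 and P2ry12 to 0.035 and 0.040 in limma with pseudocounts of 1 and 0.1. P2rx5 was -0.10 with the length correction and ranged from -0.046 to 0.052 with a library left out, at -0.032 and -0.046 without Ctrl library 2, -0.00077 and -0.012 without Sox2 cKO library 1 (edgeR and DESeq2) and -0.0089 (DESeq2) without Sox2 cKO library 5. Dpp4 ranged from -0.023 (DESeq2) and -0.0076 (edgeR), both without Ctrl library 6, to 0.78. Of 624 fold changes of named genes under an alternative, 500 kept their direction and side of the threshold, 90 kept their direction and lost the call, 10 gained a call and 24 changed sign. Among the 10 genes, Adora2a had the fewest counts, 23 to 49 per library, and among all genes named Adora3, with 6 to 38.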

Other observations

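Dpp4, the surface peptidase CD26, was listed under adenosine and AMP metabolism. It stood at 8.25, 7.57 and 1.497 CPM in Ctrl libraries 2, 4 and 6 and at 7.82, 8.46 and 7.29 CPM in Sox2 cKO libraries 1, 3 and 5. Ctrl library 6 alone stood apart, with 31 counts. The log2 fold change was 0.44 ± 0.42 (SE, n = 3 per group, edgeR adjusted p = 0.47), and without Ctrl library 6 it was -0.0076. This library was also the lowest in Nt5e. P2ry14 stood at 2.33, 1.75 and 1.98 CPM in Ctrl and at 4.44, 2.76 and 2.91 CPM in Sox2 cKO libraries. Its groups did not overlap. Adora3 likewise stood higher in every Sox2 cKO library (1.67, 0.955 and 1.06 CPM) than in any Ctrl library (0.942, 0.374 and 0.290 CPM), at few counts. Both genes were chosen for this paragraph after their values were seen.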
